A study of Mus musculus with 4 samples.

Results

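Psmb11, Psmb5, Psmb6, Psmb7, Psmb8, Psmb9, Psmb10, Prss16, Ctsl and Tbata were followed in single cells of the fetal mouse thymus. These 10 genes of the 27998 listed in the deposited matrices encode the catalytic subunits of the proteasome and the proteases that mark cortical thymic epithelial cells (cTECs), together with Tbata, a gene of thymic stroma. They were chosen for their known roles, by symbol, and all 10 were among the 23117 genes with at least 1 unique molecular identifier (UMI). Thymic lobes were taken from embryos of E13 to 13.5, and each of 4 groups gave 1 library. Tbx1+/+ carrier embryos and Tbx1neo2/neo2 carrier embryos came from pregnant mice injected with 5% ethanol in PBS on E8, E9 and E10. Tbx1neo2/neo2 minoxidil embryos came from mice given 200 µl of minoxidil, a vasodilator, at 0.55 mg/ml on the same days, and Tbx1neo2/neo2 PGE2 embryos from mice given 90 µl of prostaglandin E2 at 3.6 ng/µl. In the neo2 allele an intronic neomycin cassette lowers the expression of Tbx1, a model of the thymic hypoplasia of 22q11.2 deletion syndrome. Lobes were pooled where the tissue was hypoplastic, and the number of embryos per library is not known. The minoxidil and PGE2 libraries share the Tbx1neo2/neo2 carrier library as their control, and no Tbx1+/+ library with either agent was analysed here.

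The proteasome degrades proteins in a barrel whose inner rings hold catalytic subunits of the beta1, beta2 and beta5 type. Most cells use Psmb6 (beta1), Psmb7 (beta2) and Psmb5 (beta5), immune cells and cells exposed to interferon exchange them for the immunoproteasome subunits Psmb9 (beta1i), Psmb10 (beta2i) and Psmb8 (beta5i), and cTECs use Psmb11 (beta5t), which joins beta1i and beta2i in the thymoproteasome. Peptides cut by the thymoproteasome and shown on MHC class I select CD8+ T cells, while the lysosomal cysteine protease cathepsin L (Ctsl) and the thymus-specific serine protease Prss16 act on the peptides that cTECs show on MHC class II to developing CD4+ T cells. Psmb11 and Prss16 lie downstream of Foxn1, the transcription factor that drives the thymic epithelial program.

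Psmb11 with Psmb5 and Psmb8 with Psmb9 form neighbouring pairs in the mouse genome (GRCm38, the build named mm10 in the submitters' processing notes). Psmb11 (chr14:54621433-54629556, plus strand) and Psmb5 (chr14:54614119-54618022, minus strand) lay back to back, 3410 bases apart. Psmb8 (chr17:34197721-34201454, plus strand) and Psmb9 (chr17:34181987-34187764, minus strand) lay 9956 bases apart in the MHC. Psmb6 lay at chr11:70525367-70527858, Psmb7 at chr2:38588036-38644087, Psmb10 at chr8:105935735-105938444, Prss16 at chr13:22002173-22009742, Ctsl at chr13:64359337-64370890 and Tbata at chr10:61171954-61188841. On the opposite strand Psmb9 overlapped Tap1, Psmb7 overlapped Nek6, Psmb8 overlapped Gm20496 and Psmb10 overlapped Gm16156, all counted in the matrices. How the authors' counting assigned reads to them is not given in the sources used here. The RefSeq promoters (GRCm38.p6, 250 bases before to 50 after the RefSeq start, written along the gene's strand) of both pairs are shown. The genes of a pair stand next to each other yet differed in the cells where they were found. Gene spans above are from the GENCODE annotation, and the promoter windows of Psmb11, Psmb8 and Psmb9 lie inside them. Distances between the spans are therefore not distances between the RefSeq starts. In the first pair capitals mark GACGC on either strand, the core letters of the FOXN1 motif, and the coordinates are chr14:54625060-54625359 (plus strand) for Psmb11 and chr14:54617946-54618245 (minus strand) for Psmb5.
Psmb11: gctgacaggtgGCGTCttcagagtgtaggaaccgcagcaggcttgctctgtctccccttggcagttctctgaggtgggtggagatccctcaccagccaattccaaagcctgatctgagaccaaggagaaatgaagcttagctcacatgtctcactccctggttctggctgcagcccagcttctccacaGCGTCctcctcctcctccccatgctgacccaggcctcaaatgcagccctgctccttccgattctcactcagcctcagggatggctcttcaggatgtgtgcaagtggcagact
Psmb5: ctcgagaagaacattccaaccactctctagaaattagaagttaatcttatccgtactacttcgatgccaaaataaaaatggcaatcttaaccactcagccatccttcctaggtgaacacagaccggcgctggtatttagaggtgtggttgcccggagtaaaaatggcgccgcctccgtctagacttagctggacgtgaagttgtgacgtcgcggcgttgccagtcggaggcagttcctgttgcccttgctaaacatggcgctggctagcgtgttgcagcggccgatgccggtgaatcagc
The Psmb11 promoter held GACGC at 2 places, both on the opposite strand and so printed as GCGTC, and the Psmb5 promoter held none. Over all 27025 promoters of this length 27.4% held GACGC, so a match in 1 promoter is common. In the second pair capitals mark GACGC as well, with coordinates chr17:34197945-34198244 (plus strand) for Psmb8 and chr17:34187281-34187580 (minus strand) for Psmb9.
Psmb8: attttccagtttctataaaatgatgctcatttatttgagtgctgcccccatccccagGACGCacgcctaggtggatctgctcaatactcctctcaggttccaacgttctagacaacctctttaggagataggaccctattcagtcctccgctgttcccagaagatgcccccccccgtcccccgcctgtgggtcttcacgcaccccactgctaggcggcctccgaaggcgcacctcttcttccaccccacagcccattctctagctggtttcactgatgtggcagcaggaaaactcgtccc
Psmb9: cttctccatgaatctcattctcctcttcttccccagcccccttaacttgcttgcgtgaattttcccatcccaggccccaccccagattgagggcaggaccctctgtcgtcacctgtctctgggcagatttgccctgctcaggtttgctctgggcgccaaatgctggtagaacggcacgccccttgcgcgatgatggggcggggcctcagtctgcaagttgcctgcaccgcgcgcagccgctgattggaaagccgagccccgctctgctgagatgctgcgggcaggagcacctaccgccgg
The Psmb8 promoter held GACGC once and the Psmb9 promoter held none. Of CCAAT (37.9% of promoters) and TATAAA (14.2%), searched on both strands as well, the first was found in Psmb11 and Psmb9 and the second in Psmb8. Promoters of Psmb5, Psmb6, Psmb10, Ctsl and Tbata held none of these 3 motifs, and Psmb7 and Prss16 had no entry. These matches describe letters in a window and show neither binding nor its absence.

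The libraries held 11908, 11364, 3362 and 4471 cells in the order Tbx1+/+ carrier, Tbx1neo2/neo2 carrier, minoxidil and PGE2, the order used for every run of 4 values from here on. After filtering, 3201 to 11474 cells with a median of 14108 to 41084 UMIs remained, the treated libraries having the fewest cells and the most UMIs per cell. Cells were clustered without the 10 genes and grouped by marker lists. The cTEC-like class (Foxn1, Ccl25, Ly75 and Dll4 among its 9 markers) held 2722, 1012, 783 and 975 cells, of which cluster 2 was not cycling and cluster 3 was cycling. The class with Krt5, the Krt5 TEC-like class, held 714, 279, 197 and 286 cells, the thymocyte-like class 1867, 726, 587 and 1009 and the mesenchyme-like class 2845, 6262, 988 and 868. Thymocyte-like cells formed 1 cluster led by Gzma, Cd3g and Ifitm1, and T lineage cells and any innate cells within it were not separated. A separate innate lymphoid-like cluster held 265, 113, 59 and 106 cells. The largest of the 7 mesenchyme-like clusters was cluster 5 in the Tbx1+/+ carrier library (1198 cells) and cluster 1 in the Tbx1neo2/neo2 carrier library (2466 cells), so values of this class compare partly different cells. Unnamed cluster 6, in none of these classes, held 16.9%, 0.627%, 0.594% and 0.747% of the kept cells. Tbx1 itself was found at 3.31, 2.12, 3.64 and 2.01 CPM (levels as defined in the next paragraph) in mesenchyme-like cells, highest in the minoxidil library. At a few CPM and 1 library per group, this level does not check the genotype. Pairs of libraries shared 4 to 32 cell barcodes, at most 0.482% of the smaller library.

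Levels are UMIs of a gene as CPM, counts scaled to a total of 1000000 over all UMIs of a class in a library, with exact Poisson 95% intervals in brackets. With 1 library per group there was no test and no replicate error, and all intervals cover counting error only. A gene was called higher or lower between libraries when its level differed by at least 1.5-fold, the intervals of both levels were apart and at least 20 of its UMIs were counted. UMIs count molecules and are not divided by transcript length, and capture of each transcript was not tested. Levels of different genes are compared here only as shares of UMIs, which carry the same limit.

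Psmb11, the thymoproteasome subunit, was an epithelial transcript in every library, highest in non-cycling cTEC-like, lower in cycling cTEC-like and lowest in Krt5 TEC-like cells. In non-cycling cTEC-like cells it was found at 336 CPM (329 to 342) in the Tbx1+/+ carrier library, 295 CPM (286 to 305) in the Tbx1neo2/neo2 carrier library, 343 CPM (334 to 351) with minoxidil and 383 CPM (374 to 393) with PGE2. Cycling cTEC-like cells held 176 (172 to 180.2), 163 (157 to 169), 150.4 (146 to 155) and 246 (240.2 to 252) CPM, or 43.9 to 64.2% of the non-cycling level of the same library. Krt5 TEC-like cells held 58.6 (55.8 to 61.6), 53.9 (49.2 to 58.9), 64.4 (60.3 to 68.6) and 63.3 (59.3 to 67.4) CPM, 21.1 to 28.2% of the level in all cTEC-like cells. None of these 3 classes overlapped another in level. After thinning each cell to 5000 UMIs, 64.7%, 65.9%, 65.3% and 72.7% of non-cycling cTEC-like cells had a Psmb11 UMI, against 45.4%, 41.2%, 42.6% and 57.8% of cycling and 21.1%, 22.8%, 16.4% and 24.6% of Krt5 TEC-like cells.

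In thymocyte-like and mesenchyme-like cells Psmb11 was low. Thymocyte-like cells held 1.47, 0.431, 0.734 and 1.12 CPM from 109, 10, 30 and 56 UMIs, 0.198 to 0.601% of the cTEC-like level. Ccl25, a chemokine of cTECs that thymocytes do not make, was at 1.88 to 2.03% of its cTEC-like level in the same cells, and the keratin gene Krt8 at 0.315 to 0.995%. Of thinned thymocyte-like cells 0.433%, 0.428%, 0.172% and 0.799% had a Psmb11 UMI and 7.79%, 5.56%, 6.19% and 8.89% a Ccl25 UMI. Their median was 37711, 31751, 68524 and 49423 UMIs per cell, against 26747, 27720, 54001 and 44932 in cTEC-like cells. The Psmb11 share thus lay below that of Ccl25 in every library, and the source of these UMIs was not tested. Free RNA itself was not measured. Mesenchyme-like cells held 3.22, 1.58, 0.795 and 2.81 CPM of Psmb11, 0.348 to 1.31% of the cTEC-like level, and Ccl25 stood there at 2.42 to 3.55%. Small clusters of macrophages and granulocytes, innate lymphoid-like and endothelial-like cells held 3.16 to 21.9, 1.53 to 17.5 and 0.540 to 15.2 CPM, ranges that overlapped each other and the range of the mesenchyme-like cells.

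**Figure D1:**
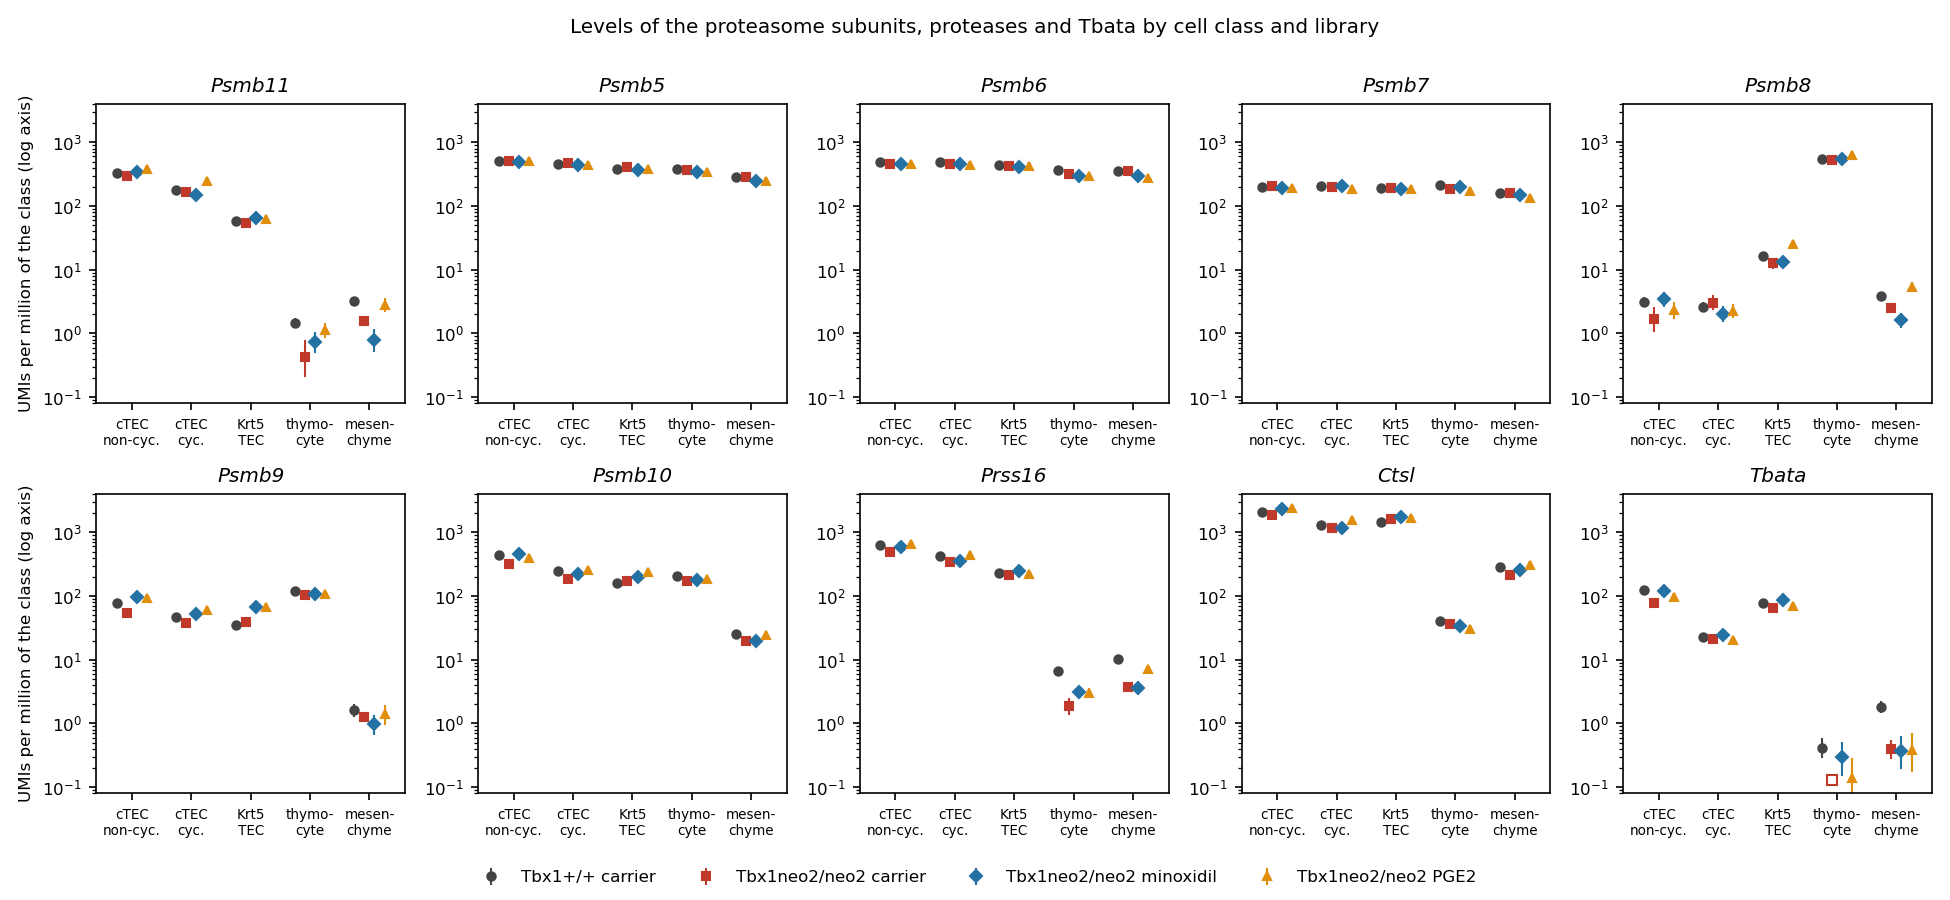
Level in CPM (log axis) of the 10 genes in non-cycling cTEC-like, cycling cTEC-like, Krt5 TEC-like, thymocyte-like and mesenchyme-like cells, with 1 point per library and exact Poisson 95% intervals as bars. Psmb11, Prss16, Ctsl and Tbata were highest in epithelial classes, Psmb8 in thymocyte-like cells, and Psmb5, Psmb6 and Psmb7 were found in every class, Psmb5 with mesenchyme-like cells at 53.2 to 60.05% of the cTEC-like level.

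The constitutive subunits were found in every class. Psmb5 (beta5), the subunit that Psmb11 and Psmb8 replace, was at 479, 489, 465 and 469 CPM in cTEC-like and 378, 403, 366 and 384 CPM in Krt5 TEC-like cells. It was at 376, 364, 344 and 345 CPM in thymocyte-like and 287, 289.6, 250.1 and 249.9 CPM in mesenchyme-like cells, 53.2 to 60.05% of the cTEC-like level. The cTEC-like cells, where Psmb11 was also present, thus had the highest Psmb5 level of these classes.

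Psmb6 (beta1) was at 486, 454, 451 and 450.0 CPM in cTEC-like and 448, 426, 412 and 431 CPM in Krt5 TEC-like cells. It was at 374, 323, 296 and 294 CPM in thymocyte-like and 352, 349, 296 and 280.3 CPM in mesenchyme-like cells, which lay close together and changed order between libraries. Psmb7 (beta2) was the most even, with 189 to 205 CPM in cTEC-like, 185 to 194 CPM in Krt5 TEC-like, 174 to 211 CPM in thymocyte-like and 133 to 163 CPM in mesenchyme-like cells. Psmb5 and Psmb7 were lowest in mesenchyme-like cells among these 4 classes in every library.

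The 3 immunoproteasome genes did not share a pattern. Psmb8 (beta5i) belonged to the thymocyte-like cells, with 547 (542 to 552), 536 (526 to 545), 542 (535 to 549) and 623 (616 to 630.1) CPM, and 91.1%, 89.6%, 92.3% and 94.7% of thinned thymocyte-like cells had a UMI. In cTEC-like cells it was at 2.82, 2.49, 2.60 and 2.27 CPM, so the thymocyte-like level was 194 to 275-fold the cTEC-like level. Krt5 TEC-like cells held 16.3 (14.8 to 17.9), 12.6 (10.4 to 15.2), 13.2 (11.5 to 15.2) and 25.4 (22.9 to 28.1) CPM, which was 5.08 to 11.2-fold the cTEC-like level, and mesenchyme-like cells 3.90, 2.54, 1.62 and 5.33 CPM. Hematopoietic transcripts accompanied part of the Krt5 TEC-like signal, since 79.1%, 36.3%, 55.1% and 60% of its Psmb8 UMIs lay in cells that also held a UMI of Ptprc, Laptm5, Coro1a, Cd52 or Rac2, and the level in cells without any such UMI was 5.59, 9.26, 10.9 and 15.7 CPM. Cells with such a UMI numbered 220 of 714, 25 of 279, 58 of 197 and 89 of 286. Finding such a UMI also depends on depth, and Krt5 TEC-like cells had a median of 31213.5, 26374, 59534 and 46335 UMIs. The summed level of these 5 markers in Krt5 TEC-like cells was 51.4, 53.2, 22.0 and 32.7 CPM, and their part in the Psmb8 level was not tested. A few cells held much of this signal, since the 10 highest cells had 43.3%, 65.5%, 46.4% and 42.6% of the Psmb8 UMIs of Krt5 TEC-like cells. In cTEC-like cells of the Tbx1neo2/neo2 carrier library the 10 highest cells had 46 of 76 Psmb8 UMIs, 27 of them in 1 cell, and the level was 1.32 CPM in cells without a hematopoietic marker UMI.

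Psmb9 (beta1i) and Psmb10 (beta2i), the partners of beta5t, were present in both the epithelium and the thymocytes. Psmb9 was at 59.6 (57.9 to 61.4), 44.5 (42.2 to 47.0), 70.1 (67.7 to 72.6) and 73.6 (71.1 to 76.1) CPM in cTEC-like cells, 34.6, 38.7, 68.5 and 68.0 CPM in Krt5 TEC-like cells and 120.5, 104, 109 and 109.5 CPM in thymocyte-like cells, and at 1.60, 1.25, 0.978 and 1.39 CPM in mesenchyme. The thymocyte-like level was 1.49 to 2.33-fold the cTEC-like level, and the cTEC-like level 35.6 to 71.7-fold that of mesenchyme. Psmb10 took the opposite order, with 448 (440.5 to 455), 322 (312 to 332), 449.8 (440.0 to 459.6) and 401 (391.6 to 410.3) CPM in non-cycling cTEC-like cells and 204, 174, 180.1 and 187 CPM in thymocyte-like cells. Krt5 TEC-like cells held 159, 170.5, 198 and 242 CPM of Psmb10, cycling cTEC-like cells 244, 187, 218 and 255 CPM and mesenchyme-like cells 24.9, 19.7, 19.4 and 24.6 CPM. Over all classes the highest Psmb9 level was that of a small innate lymphoid-like cluster, at 165 to 207 CPM, and the highest Psmb10 level that of non-cycling cTEC-like cells. The innate lymphoid-like cluster also held Psmb8 at 520.4 to 718 CPM, a range that overlapped the 536 to 623 CPM of thymocyte-like cells.

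Set against the gene of the subunit each replaces, these transcripts took shares of UMIs that differed between classes. They are shares of RNA, and the protein subunits in the proteasome were not measured. In cTEC-like cells Psmb11 took 33.7% (33.3 to 34.1) of the UMIs of the 3 beta5 genes in the Tbx1+/+ carrier library, 30.7% (30.1 to 31.3) in the Tbx1neo2/neo2 carrier library, 32.8% (32.3 to 33.3) with minoxidil and 38.8% (38.3 to 39.4) with PGE2, Psmb8 took 0.389%, 0.351%, 0.374% and 0.294%, and Psmb5 the rest. The PGE2 library had the highest share and the Tbx1neo2/neo2 carrier library the lowest, and the intervals of the 4 libraries did not overlap. These libraries kept the highest and lowest share under all 10 alternatives that apply to this share. Among non-cycling cTEC-like cells the Psmb11 share was 39.7%, 36.7%, 40.9% and 43.2%, and among cycling cells 27.7%, 25.4%, 25.1% and 35.3%. Thymocyte-like cells had other shares, with Psmb8 at 59.2%, 59.5%, 61.1% and 64.3% of beta5 UMIs, Psmb5 at 40.7%, 40.4%, 38.8% and 35.6% and Psmb11 at 0.159%, 0.0479%, 0.0828% and 0.115%. In Krt5 TEC-like cells Psmb5 took most beta5 UMIs, at 83.4%, 85.8%, 82.5% and 81.3%, with Psmb11 at 12.95%, 11.5%, 14.5% and 13.4%. In mesenchyme-like cells Psmb5 took almost all of them, at 97.6%, 98.6%, 99.0% and 96.8%.

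In cTEC-like cells, where beta5i was scarce, the inducible Psmb10 took the larger part of beta2 UMIs, while the constitutive Psmb6 kept most beta1 UMIs. Psmb10 took 61.8%, 54.5%, 61.0% and 62.2% of beta2 UMIs in cTEC-like cells, 49.2%, 48.6%, 47.9% and 51.7% in thymocyte-like, 45.2%, 46.9%, 51.4% and 56.7% in Krt5 TEC-like and 13.3%, 10.8%, 11.4% and 15.5% in mesenchyme-like cells. Psmb9 took a smaller part of beta1 UMIs, 10.9%, 8.93%, 13.5% and 14.1% in cTEC-like, 7.17%, 8.33%, 14.2% and 13.6% in Krt5 TEC-like and 24.4%, 24.3%, 26.9% and 27.2% in thymocyte-like cells, and at most 0.492% in mesenchyme. In non-cycling cTEC-like cells of the Tbx1neo2/neo2 carrier library Psmb10 held 60.9% of beta2 UMIs against 68.9% in the Tbx1+/+ carrier library.

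**Figure D2:**
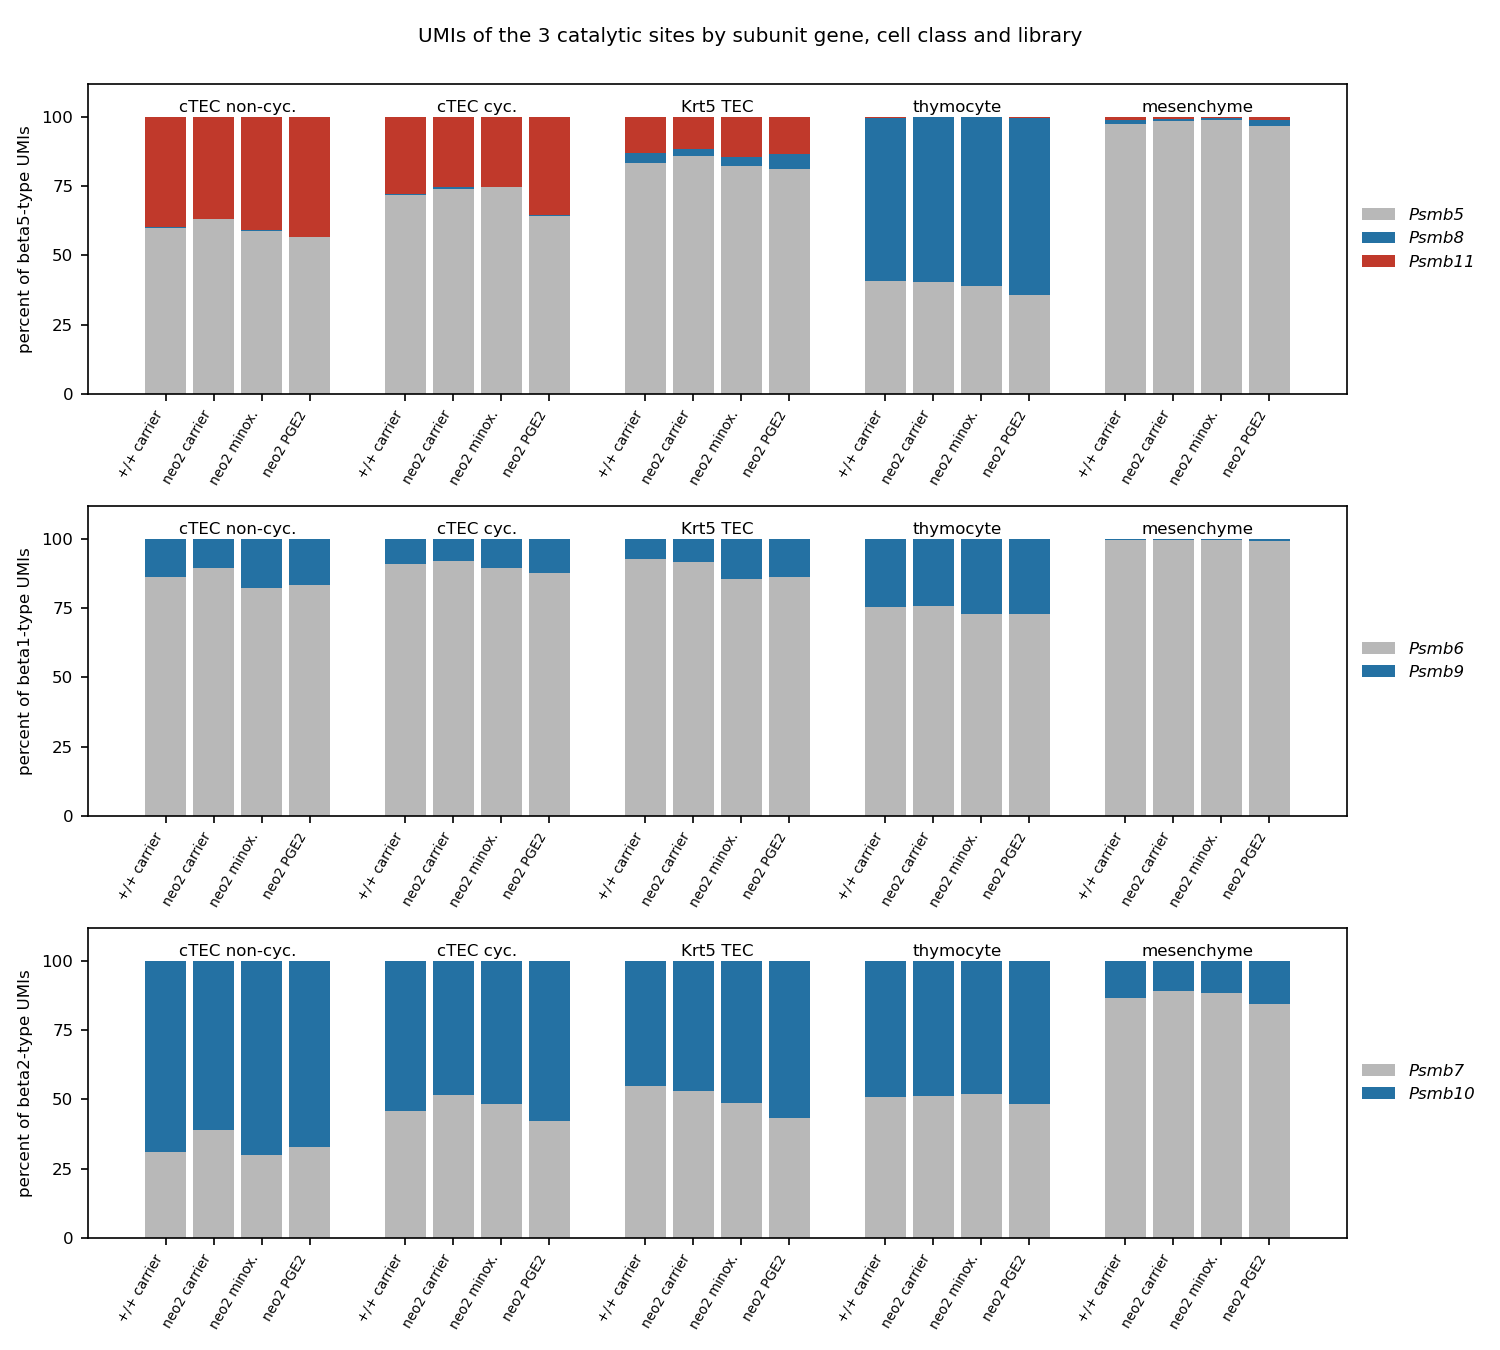
Share (percent) of the UMIs of each catalytic site taken by each subunit gene (beta5: Psmb5, Psmb8, Psmb11; beta1: Psmb6, Psmb9; beta2: Psmb7, Psmb10), stacked for each class and library. Psmb11 took 36.7 to 43.2% of beta5 UMIs in non-cycling cTEC-like cells and Psmb8 59.2 to 64.3% in thymocyte-like cells.

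The proteases and Tbata divided into narrow and broad patterns. Prss16 was at 630.2 (622 to 639), 489.6 (477 to 502), 586 (575 to 598) and 658 (646 to 670.1) CPM in non-cycling cTEC-like cells, 426, 343, 359 and 439 CPM in cycling cells and 227, 213, 246 and 222 CPM in Krt5 TEC-like cells. Thymocyte-like and mesenchyme-like cells held 6.64, 1.90, 3.11 and 3.04 and 10.1, 3.74, 3.55 and 7.22 CPM, at most 1.29% and 1.97% of the cTEC-like level. Prss16 therefore followed Psmb11 from class to class, with a smaller step to the Krt5 TEC-like cells, which kept 42.3 to 54.4% of the cTEC-like level.

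Ctsl was broader than Prss16 and Psmb11. Non-cycling cTEC-like cells held 2122, 1852, 2290.3 and 2402 CPM, cycling cells 1292, 1152, 1171 and 1589 CPM and Krt5 TEC-like cells 1472, 1632, 1729.9 and 1705 CPM, so the latter lay at 89.2 to 113% of all cTEC-like cells and overlapped the cycling cells in range. Mesenchyme-like cells held 283, 210.4, 257 and 305 CPM, 14.6 to 17.1% of the cTEC-like level, and 68.3%, 62.7%, 67.6% and 72.0% of thinned mesenchyme-like cells had a UMI. Thymocyte-like cells held 40.0, 36.1, 33.7 and 30.9 CPM, 1.62 to 2.51% of the cTEC-like level, a percentage close to that of Ccl25 in the same cells.

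Of the 10 genes, Tbata had the widest step between non-cycling and cycling cTEC-like cells. It was at 125 (121 to 128), 77.7 (72.9 to 82.7), 121 (116 to 126) and 95.3 (90.8 to 99.9) CPM in non-cycling and 23.0, 21.4, 24.1 and 20.2 CPM in cycling cells, which held 18.5 to 27.6% of the non-cycling level. Krt5 TEC-like cells held 76.5, 63.8, 87.5 and 69.1 CPM, 114 to 143% of the level of all cTEC-like cells, and overlapped the non-cycling cells in range. In thymocyte-like cells 31, 0, 12 and 7 UMIs were counted, at most 0.419 CPM, and the 0 allows a level of up to 0.129 CPM (3 counts). Mesenchyme-like cells held 1.81, 0.397, 0.367 and 0.378 CPM.

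Within the cTEC-like class the cells with more Psmb11 also held more of Psmb9, Psmb10, Prss16, Ctsl and Tbata, while Psmb7 stood lower in each higher range in every library and Psmb5 and Psmb6 took no order shared by the 4 libraries. Thinned cTEC-like cells of the Tbx1+/+ carrier library were split into 1207 cells with no Psmb11 UMI, 1300 with 1 to 4 and 197 with 5 to 9, a further 13 holding 10 or more. Over these 3 ranges Psmb10 was at 204, 443 and 890.4 CPM, Psmb9 at 34.1, 88.2 and 173 CPM, Prss16 at 349, 706 and 971 CPM, Ctsl at 1113, 2301 and 3798 CPM and Tbata at 19.6, 103 and 349.7 CPM. Psmb5 was at 461, 499 and 483 CPM, and Psmb6 and Psmb7 stood lower in each higher range of this library, at 511, 469 and 419 and 217, 195 and 156 CPM.

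The Tbx1neo2/neo2 carrier library, with 460, 481 and 53 cells in the 3 ranges, gave Psmb10 at 156, 345 and 737 CPM, Prss16 at 302, 585 and 861 CPM and Tbata at 8.70, 84.4 and 242 CPM, beside Psmb5 at 467, 509.6 and 540.3 CPM, higher in each higher range. With minoxidil (357, 375 and 49 cells) Psmb10 was at 206, 441 and 846 CPM, Prss16 at 304, 639 and 870.4 CPM and Tbata at 23.5, 89.6 and 327 CPM. With PGE2 (339, 537 and 87 cells) they were at 167, 386 and 674 CPM, 299, 697 and 953 CPM and 6.49, 82.0 and 209 CPM. The same order held when non-cycling cells were taken alone, where Psmb10 of the Tbx1+/+ carrier library was at 245, 536 and 954 CPM in 506, 758 and 156 cells and Tbata at 30.8, 149 and 406 CPM. Psmb8 showed no such order, at 2.98, 3.69 and 3.05 CPM in the Tbx1+/+ carrier library. Krt8, a keratin of simple epithelium, and Ccl25 moved with the ranges too, at 998, 2443 and 3971 and 354, 1235 and 2368 CPM, and the cells of a range share their library, so this is a description with no test.

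**Figure D3:**
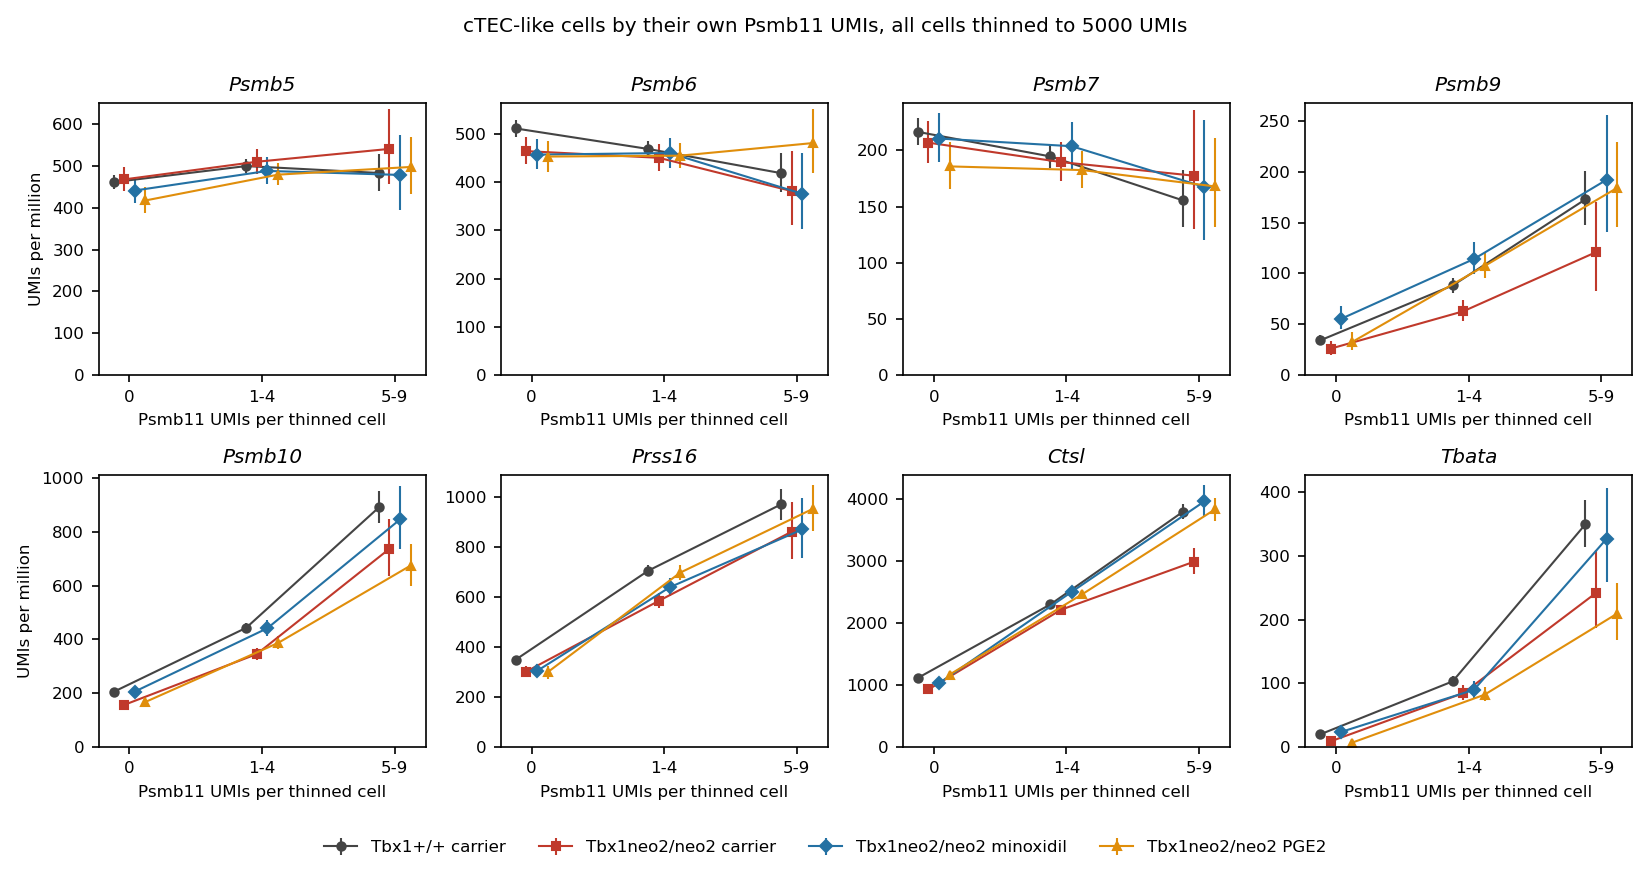
Level in CPM (linear axes from 0) of 8 genes in thinned cTEC-like cells grouped by their Psmb11 UMIs (0, 1 to 4, 5 to 9), with 1 line per library and exact Poisson 95% intervals as bars. Psmb9, Psmb10, Prss16, Ctsl and Tbata were higher in each higher range, while Psmb5 and Psmb6 stayed within 376 to 540.3 CPM.

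Across the 36 sums of UMIs by class and library, which share libraries and depth, the genes most like Psmb11 by Pearson's r of log2(CPM + 1) were Prss16 (r = 0.984), Slc22a7 (r = 0.984), Crip3 (r = 0.983), Diras2 (r = 0.982) and Slc46a2 (r = 0.981), out of 5556 genes with at least 50 CPM in 1 class of 1 library. Prss16 was in turn most like Slc46a2, a thymic stromal transporter (r = 0.991), Il7, the cytokine that developing lymphocytes need (r = 0.989), Kcnn3 (r = 0.989), Krt8 (r = 0.989) and Pax9, a transcription factor of the pharyngeal pouch (r = 0.988). Psmb8 kept company with genes of leukocytes, namely Sp110 (r = 0.987), Sash3 (r = 0.986), Coro1a (r = 0.986), Epsti1 (r = 0.984) and Dock2 (r = 0.984), and was set against Psmb11 at r = -0.30. Psmb5 was most like Ccdc58 (r = 0.993), Ndufab1 (r = 0.992), Magoh (r = 0.991), Mrps24 (r = 0.991) and Exosc4 (r = 0.991), and was close to Psmb6 (r = 0.983) and Psmb7 (r = 0.978). Slc46a2 and Il7 were among the markers of the cTEC-like class, Krt8 among the epithelial and Coro1a among the hematopoietic markers. Their r is therefore partly set by how the classes were named. Among the 10 genes Psmb11 also lay near Tbata (r = 0.904) and Ctsl (r = 0.861). Psmb8 and Psmb9, neighbours in the MHC, shared r = 0.680.

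The first comparison asked how the epithelial genes stood in the hypoplastic thymus, Tbx1neo2/neo2 carrier against Tbx1+/+ carrier. In cTEC-like cells none of the 10 genes was called, where 3.95% of all genes tested were called higher and 2.08% lower. Psmb11 was at 218 against 245 CPM, a log2 ratio of -0.17 (-0.21 to -0.13), and it came to 0.058 when each cell was classed from its own marker UMIs, so its direction differed with the way cells were assigned. The partner Psmb10 was at 243 against 332 CPM (log2 ratio -0.45, -0.49 to -0.41) and Psmb9 at 44.5 against 59.6 CPM (log2 ratio -0.42, -0.51 to -0.33). Tbata had the lowest ratio at -0.58 (-0.67 to -0.50), just short of a call and called under 3 alternatives, followed among the proteases by Prss16 at -0.35 (-0.38 to -0.32) and Ctsl at -0.20 (-0.21 to -0.18). Psmb5, at 0.03 (0.0034 to 0.06), Psmb6, at -0.10 (-0.12 to -0.07), and Psmb7, at -0.02 (-0.06 to 0.02), lay close to 0. Psmb8, at 2.49 against 2.82 CPM (log2 ratio -0.18, -0.58 to 0.20), was called lower under 6 of 11 alternatives, at -0.60 to -2.46. The median over the 10 genes was -0.19 beside -0.05 over all genes.

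In non-cycling cTEC-like cells of the same comparison 2 of the 10 genes were called lower, where 1.94% of all genes tested were. Tbata was at 77.7 against 125 CPM (log2 ratio -0.68, -0.78 to -0.58), and Psmb8 at 1.67 against 3.14 CPM (log2 ratio -0.91, -1.66 to -0.23), the latter on 21 and 107 UMIs. In cycling cells none was called (5.05% of all genes were, in either direction), and Tbata was at 21.4 against 23.0 CPM (log2 ratio -0.10, -0.28 to 0.07), and the difference between the cycling and non-cycling ratios was not tested. The Tbx1neo2/neo2 carrier library also carried more transcripts of other cell types in its non-cycling cTEC-like cells. The 9 mesenchyme markers summed to 117, 508, 70.4 and 37.1 CPM there and the 7 erythroid markers to 667, 4175, 123 and 2199 CPM, and the part these had in the ratios was not tested. In Krt5 TEC-like cells no gene was called, where 3.23% of all genes were called higher and 4.48% lower, and Psmb11 was at -0.12 (-0.27 to 0.03). There Psmb8 was at -0.37 (-0.68 to -0.07), but at -0.88 and called lower with a mitochondrial limit of 5%, and at 0.73 and called higher without the cells that held markers of another class. Psmb9 stood at 0.16 (-0.02 to 0.34) and Psmb10 at 0.10 (0.01 to 0.18).

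With minoxidil, 1 of the 10 genes was called in cTEC-like cells against the Tbx1neo2/neo2 carrier library, where 2.98% of all genes were called higher and 4.38% lower. This was Psmb9, which rose from 44.5 to 70.1 CPM (log2 ratio 0.65, 0.56 to 0.75). The call was lost with a mitochondrial limit of 5% (0.39) and with classes from each cell's own marker UMIs (0.43). Psmb10 was at 0.36 (0.32 to 0.40) and Tbata at 0.51 (0.42 to 0.60), below the fold for a call. Psmb11 was at 0.07 (0.02 to 0.11), and alternatives placed it on both sides of 0. Prss16 stood at 0.16 (0.13 to 0.20) and Ctsl at 0.17 (0.16 to 0.19), and the 3 constitutive subunits between -0.07 and -0.01. Psmb8 was at 0.06 (-0.37 to 0.50), but at up to 2.23 over the alternatives, and it was called without integration and without cells holding another class's markers. The median over the 10 genes was 0.12 beside 0.02 over all genes.

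Split by cycle state, the minoxidil library had 3 genes called higher in non-cycling cTEC-like cells (3.25% of all genes), which were Psmb9 at 0.82 (0.70 to 0.95), Tbata at 0.64 (0.53 to 0.75) and Psmb8 at 1.04 (0.30 to 1.83). Tbata and Psmb8 were the same 2 genes called lower in the Tbx1neo2/neo2 carrier library above, and since both comparisons use that library, the pair of calls is not independent. Their levels with minoxidil, 121 and 3.43 CPM, stood beside 125 and 3.14 CPM in the Tbx1+/+ carrier library. No gene was called in cycling cTEC-like cells (6.42% of all genes were). In Krt5 TEC-like cells Psmb9 was called, from 38.7 to 68.5 CPM (log2 ratio 0.82, 0.65 to 1.004), where 3.83% of all genes were called higher and 4.53% lower. Its ratio was 0.30 when each cell was weighted equally and 0.37 with classes from each cell's own marker UMIs, and it was no longer called in either case or after thinning. Tbata was at 0.46 (0.31 to 0.60) and was called under 2 of 11 alternatives. Psmb11 was at 0.26 (0.10 to 0.42) and went from -0.77 to 0.75 over the alternatives, while Psmb8 was at 0.07 (-0.27 to 0.42), Psmb10 at 0.22 (0.13 to 0.31), Prss16 at 0.21 (0.13 to 0.29) and Ctsl at 0.08 (0.05 to 0.11).

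With PGE2, Psmb9 was again the only gene of the 10 called in cTEC-like cells as classed here, where 2.54% of all genes were called higher and 5.62% lower. It was at 73.6 against 44.5 CPM (log2 ratio 0.72, 0.63 to 0.82), and the call was lost with a mitochondrial limit of 5% (0.53). Psmb11 was at 299.6 against 218 CPM (log2 ratio 0.46, 0.42 to 0.50) and lay between 0.39 and 0.52 under every alternative. Prss16 at 0.38 (0.35 to 0.41), Ctsl at 0.40 (0.39 to 0.42) and Psmb10 at 0.36 (0.32 to 0.40) had ratios of similar size, while Psmb5 at -0.06 (-0.09 to -0.03), Psmb6 at -0.01 (-0.04 to 0.02) and Psmb7 at -0.09 (-0.14 to -0.05) did not. Tbata was at 0.15 (0.05 to 0.25) and Psmb8 at -0.13 (-0.58 to 0.31). With classes from each cell's own marker UMIs Psmb8, Psmb10, Ctsl and Tbata were called as well, Tbata reaching 1.13 and Psmb8 1.94. The median over the 10 genes was 0.26 beside -0.01 over all genes.

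In cycling cTEC-like cells with PGE2, Psmb11 was called higher, from 163 to 246 CPM (log2 ratio 0.59, 0.53 to 0.65), as was Psmb9 (log2 ratio 0.70, 0.57 to 0.83), where 2.48% of all genes were. The Psmb11 ratio lay just over the fold of 1.5. In non-cycling cells Psmb11 stood at 0.38 (0.32 to 0.44) and Psmb9 was called at 0.77 (0.64 to 0.90), beside 2.20% of all genes called higher. Of thinned cycling cells 57.8% had a Psmb11 UMI with PGE2 against 41.2% in the Tbx1neo2/neo2 carrier library.

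In Krt5 TEC-like cells with PGE2 the called genes were Psmb9, from 38.7 to 68.0 CPM (log2 ratio 0.81, 0.64 to 0.99), and Psmb8, from 12.6 to 25.4 CPM (log2 ratio 1.01, 0.70 to 1.32), where 3.31% of all genes were called higher and 4.61% lower. Psmb10 stood at 0.51 (0.42 to 0.59), and Psmb11 at 0.23 (0.07 to 0.39). In cells without a hematopoietic marker UMI Psmb8 was at 15.7 (13.3 to 18.4) CPM with PGE2 and 9.26 (7.25 to 11.7) CPM in the Tbx1neo2/neo2 carrier library. This left out 89 of 286 and 25 of 279 cells, and the filter depends on depth, which differed between the libraries. The Psmb9 call was lost when each cell was weighted equally (0.42), and the Psmb8 call when the 5% of cells with the highest doublet scores were left out (0.52) or classes came from each cell's own marker UMIs (0.78).

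**Figure D4:**
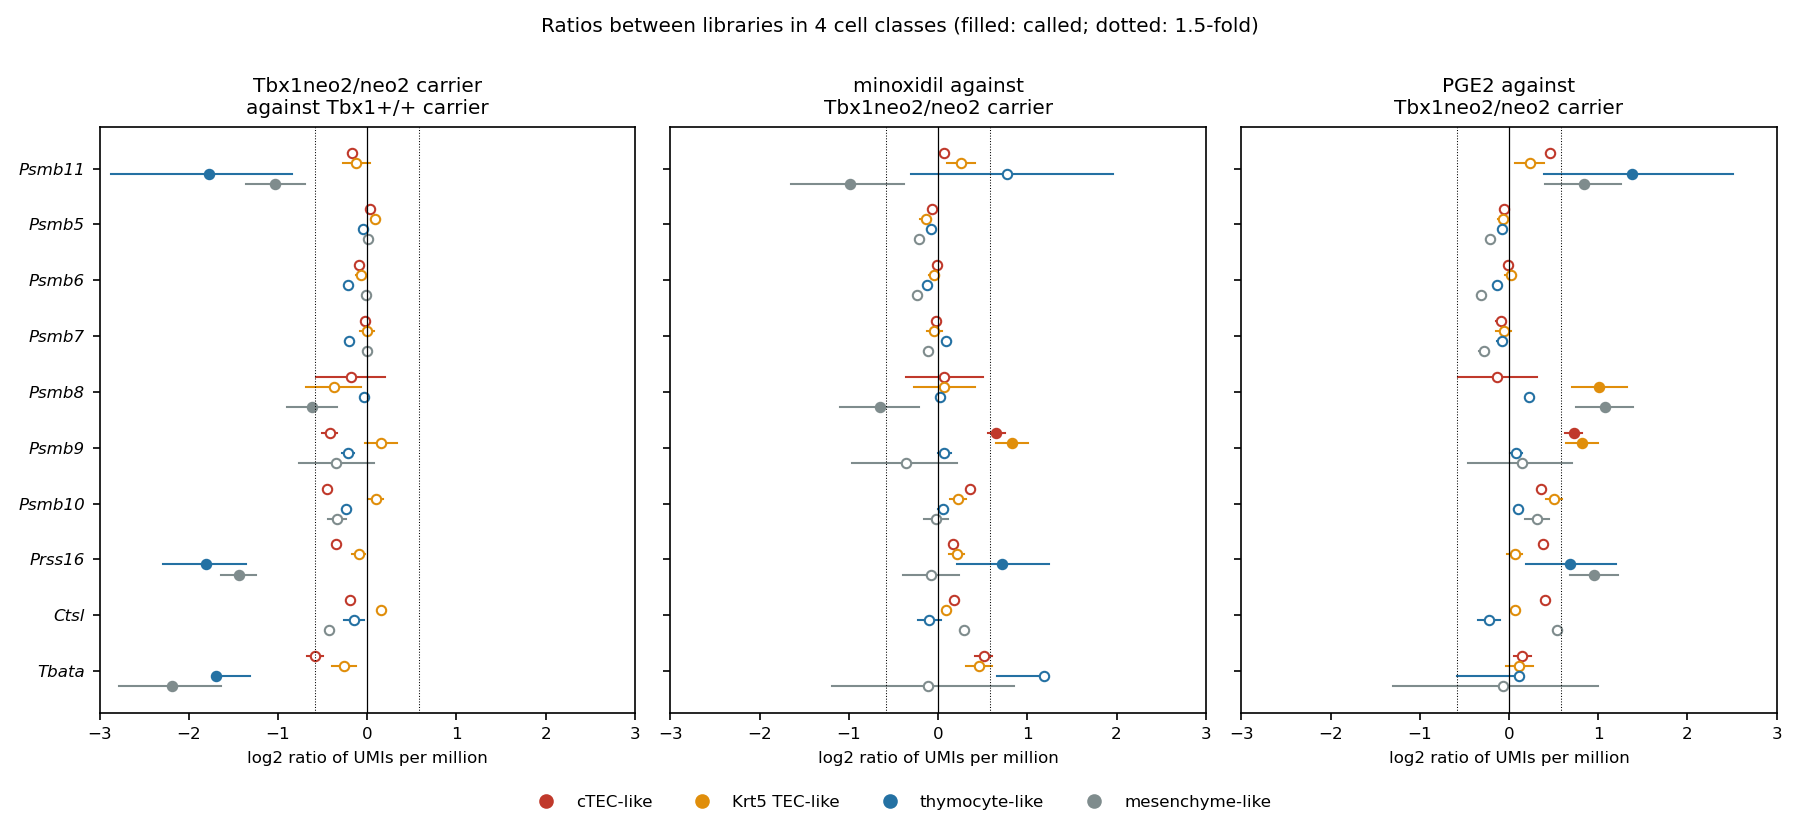
Log2 ratio of CPM with exact 95% intervals for the 10 genes in each class, for Tbx1neo2/neo2 carrier against Tbx1+/+ carrier, minoxidil against Tbx1neo2/neo2 carrier and PGE2 against Tbx1neo2/neo2 carrier. Filled points are called, among them Psmb9 in cTEC-like cells at 0.65 with minoxidil and 0.72 with PGE2.

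Thymocyte-like cells showed no called ratio for the genes they express. Psmb8 was at -0.03 (-0.06 to -0.0013), 0.02 (-0.01 to 0.05) and 0.22 (0.19 to 0.25) over the 3 comparisons, Psmb9 at -0.22 (-0.28 to -0.15), 0.07 (-0.0043 to 0.14) and 0.08 (0.01 to 0.15), and Psmb10 at -0.23 (-0.29 to -0.18), 0.05 (-0.0032 to 0.11) and 0.10 (0.05 to 0.16). Calls in this class fell on Psmb11, Prss16 and Tbata. In Tbx1neo2/neo2 carrier against Tbx1+/+ carrier, 3 were called lower (2.62% of all genes), Psmb11 at -1.77 (-2.87 to -0.84), Prss16 at -1.81 (-2.29 to -1.36) and Tbata, which had 0 UMIs against 31 and was at least 3.24-fold lower (3 counts in the library at 0). Krt8 in the same cells was at -1.97 (-2.28 to -1.67), Ccl25 at -0.49 (-0.69 to -0.30) and Foxn1 at -2.23 (-3.72 to -1.05), the last on 6 and 90 UMIs. Epcam went the other way, at 0.38 (0.25 to 0.51). Prss16 was called higher with minoxidil at 0.71 (0.21 to 1.24), where 3.0% of all genes were, and with PGE2 at 0.68 (0.19 to 1.20), as was Psmb11 with PGE2 at 1.38 (0.39 to 2.51), where 2.90% of all genes were, and Krt8 stood at 0.86 (0.53 to 1.20) and 0.72 (0.39 to 1.06). With minoxidil and PGE2 Epcam was at -0.16 (-0.29 to -0.02) and 0.95 (0.83 to 1.08). Ccl25 was at 0.13 (-0.09 to 0.35) and 0.24 (0.04 to 0.45), and Foxn1 at 0.50 (-0.94 to 2.16) and 1.16 (-0.13 to 2.72). The 6 epithelial markers summed to 76.5, 55.7, 64.6 and 96.8 CPM in these cells, with none at 0. The part of foreign RNA in the calls of this class was not tested. Most alternatives ended the calls of the treated libraries. Prss16 with minoxidil was called in 4 of 11 and went as low as -1.25, Prss16 with PGE2 in 2 of 11 and as low as -0.96, and Psmb11 with PGE2 in 1 of 11 and as low as -0.017. Against Tbx1+/+ carrier Psmb11 was called in 8 of 11, Prss16 in 10 of 11 and Tbata in 7 of 11.

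In mesenchyme-like cells the calls likewise fell on genes at 10.1 CPM or below. In Tbx1neo2/neo2 carrier against Tbx1+/+ carrier Psmb11 (log2 ratio -1.03, -1.36 to -0.70), Psmb8 (log2 ratio -0.62, -0.90 to -0.34), Prss16 (log2 ratio -1.44, -1.64 to -1.24) and Tbata (log2 ratio -2.19, -2.78 to -1.63) were called lower, where 11.9% of all genes were and Krt8 stood at -1.70 (-1.80 to -1.61). With minoxidil Psmb11 (log2 ratio -0.99, -1.65 to -0.38) and Psmb8 (log2 ratio -0.65, -1.10 to -0.21) were called lower (11.6%), and with PGE2 Psmb11 (log2 ratio 0.84, 0.40 to 1.26), Psmb8 (log2 ratio 1.07, 0.75 to 1.39) and Prss16 (log2 ratio 0.95, 0.68 to 1.22) higher (11.6%). Against Tbx1+/+ carrier, Epcam (-0.57, -0.72 to -0.43), Ccl25 (-0.47, -0.57 to -0.37) and Foxn1 (-0.53, -0.91 to -0.14) were not called in these cells. With minoxidil and PGE2 Krt8 was at -0.35 and 0.53, Epcam at -1.29 and -0.23, Ccl25 at -0.31 and -0.22 and Foxn1 at -0.48 and 0.14. The 6 epithelial markers summed to 129, 57.4, 36.5 and 59.5 CPM, with none at 0. The part of foreign RNA in the calls of this class was not tested. Ctsl, at 210 CPM or more in these cells, was at -0.43 (-0.46 to -0.39), 0.29 (0.25 to 0.32) and 0.54 (0.50 to 0.57) and was not called. The calls with PGE2 were kept in 3 of 11 alternatives for Psmb11, which went as low as -0.63, in 6 of 11 for Psmb8 (as low as -0.31) and in 4 of 11 for Prss16 (as low as -0.70). Those with minoxidil were kept in 4 of 11 for Psmb11 and 5 of 11 for Psmb8, which reached 0.22 and 0.999. Against Tbx1+/+ carrier the calls were kept in 7 to 10 of 11 alternatives, Psmb11 reaching 0.18 without Scrublet calls.

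The rest of the pathway was read from lists of other proteasome, antigen presentation and protease genes. Of the 11 other 20S core subunits, 18 subunits of the 19S regulator and 9 activators and assembly factors, 0 were called in cTEC-like cells or Krt5 TEC-like cells in any of the 3 comparisons. Median log2 ratios of these lists in cTEC-like cells lay between -0.14 and 0.07. In Tbx1neo2/neo2 carrier against Tbx1+/+ carrier, 1 of 10 MHC class I pathway genes tested was lower and 4 of 16 interferon response genes were lower in cTEC-like cells, with list medians of -0.29 and -0.29, where 2.08% of all genes tested were called lower and 3.95% higher. These genes fell outside the naming rule and were chosen after their values were seen. They were Erap1, which trims peptides for MHC class I (log2 ratio -0.69, -0.90 to -0.48), and the interferon genes Irf1 (log2 ratio -0.76, -0.86 to -0.65), Isg15 (log2 ratio -0.85, -1.03 to -0.68), Ifit3 (log2 ratio -2.54, -5.65 to -0.56) and Gbp2 (log2 ratio -0.86, -1.12 to -0.61). None of 9 MHC class II pathway genes was called, and of 13 other cathepsins and cystatins only Ctsk, a protease of mesenchyme and bone that was also chosen after its values were seen (log2 ratio 3.15, 2.56 to 3.77), was. Ctsk was the 1 gene of its list called lower with minoxidil (log2 ratio -4.95, -6.60 to -3.68) and with PGE2 (log2 ratio -4.98, -6.63 to -3.71). The mesenchyme markers given above, summed in non-cycling cTEC-like cells only, were also highest in the Tbx1neo2/neo2 carrier library, and a link with Ctsk was not tested.

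With minoxidil, 4 of 16 interferon response genes were higher in cTEC-like cells, where 2.98% of all genes were higher and 4.38% lower, among them Irf1, a transcription factor that drives immunoproteasome genes, at 58.0 against 28.8 CPM (log2 ratio 1.01, 0.90 to 1.12). The others, chosen after their values were seen, were Isg15 (log2 ratio 0.62, 0.43 to 0.80), Ifit3 (log2 ratio 3.04, 1.03 to 6.17) and Gbp2 (log2 ratio 0.74, 0.47 to 1.02). No gene of the 10 MHC class I or 9 class II pathway genes tested was called, at list medians of 0.42 and 0.21. With PGE2, 3 of 10 MHC class I genes, 5 of 9 MHC class II genes and 4 of 15 interferon response genes were higher and none was lower, where 2.54% of all genes were higher and 5.62% lower, at medians of 0.43, 0.61 and 0.43. Cd74, the invariant chain that cathepsins cut, was at 469 against 233 CPM (log2 ratio 1.01, 0.97 to 1.05), H2-Eb1, an MHC class II beta chain, at 105 against 55.9 CPM (log2 ratio 0.91, 0.83 to 0.99), and Irf1 at 63.2 against 28.8 CPM (log2 ratio 1.13, 1.03 to 1.25). Others, chosen after their values were seen, were H2-D1 (log2 ratio 0.92, 0.77 to 1.08), Tap1 (log2 ratio 0.76, 0.54 to 0.99) and Tap2 (log2 ratio 1.18, 0.73 to 1.65) of class I, H2-Aa (log2 ratio 0.94, 0.87 to 1.01), Ciita (log2 ratio 0.83, 0.33 to 1.36) and H2-DMa (log2 ratio 0.61, 0.47 to 0.75) of class II, and Isg15 (log2 ratio 1.20, 1.02 to 1.37) and Socs1 (log2 ratio 0.62, 0.46 to 0.78) of the interferon response.

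In Krt5 TEC-like cells of the Tbx1neo2/neo2 carrier library against Tbx1+/+ carrier, 3 of 9 class II genes were higher, 0 of 10 class I genes were called, 3 of 16 interferon response genes were lower, and of 13 cathepsins and cystatins 2 were higher and 1 lower. Over all genes 3.23% were higher and 4.48% lower. The class II genes, chosen like all genes of this paragraph after their values were seen, were H2-Aa (log2 ratio 0.91), H2-DMa (log2 ratio 0.84, 0.60 to 1.07) and H2-DMb1 (log2 ratio 0.79, 0.43 to 1.15). The interferon genes were Irf1 (log2 ratio -0.69, -0.87 to -0.52), Isg15 (log2 ratio -0.95, -1.26 to -0.64) and Ifit3 (log2 ratio -3.20, -8.55 to -0.59), the last on 1 and 27 UMIs. Of the proteases, Ctsk (log2 ratio 2.48, 1.61 to 3.39) and Ctss, a cathepsin of antigen-presenting cells (log2 ratio 1.49, 0.56 to 2.42), were higher and Ctsh (log2 ratio -0.64, -0.78 to -0.51) was lower.

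With minoxidil, 4 of 11 class I, 1 of 9 class II and 6 of 14 interferon response genes were higher in Krt5 TEC-like cells and 1 of 12 cathepsins and cystatins was lower. Over all genes 3.83% were higher and 4.53% lower. The class I genes, chosen after their values were seen as were the others given here, were H2-D1 (log2 ratio 0.68, 0.55 to 0.82), Tap1 (log2 ratio 0.99, 0.72 to 1.27), Tap2 (log2 ratio 0.93, 0.59 to 1.28) and Tapbp (log2 ratio 0.63, 0.44 to 0.82), which load peptides on class I or present them. The class II gene was its transactivator Ciita (log2 ratio 1.04, 0.34 to 1.80), and Ctsk (log2 ratio -5.81, -11.16 to -3.24) was the protease. With PGE2, 6 of 10 class I, 7 of 9 class II and 5 of 15 interferon response genes were higher, where 3.31% of all genes were higher and 4.61% lower. Irf1 (log2 ratio 1.501, 1.33 to 1.68), Irf7 (log2 ratio 2.15, 0.80 to 3.85), Isg15 (log2 ratio 1.85, 1.54 to 2.16), Gbp2 (log2 ratio 0.59, 0.27 to 0.91) and Socs1 (log2 ratio 1.13, 0.87 to 1.40) were the interferon genes that rose, and Ifit1 (log2 ratio -0.79, -1.16 to -0.42) was lower. Of 12 cathepsins and cystatins Ctsk (log2 ratio -2.83, -4.15 to -1.69) and Ctss (log2 ratio -1.81, -3.06 to -0.66) were lower. The lists were chosen with earlier results of these data known, and the minoxidil and PGE2 values share their control library.

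**Figure D5:**
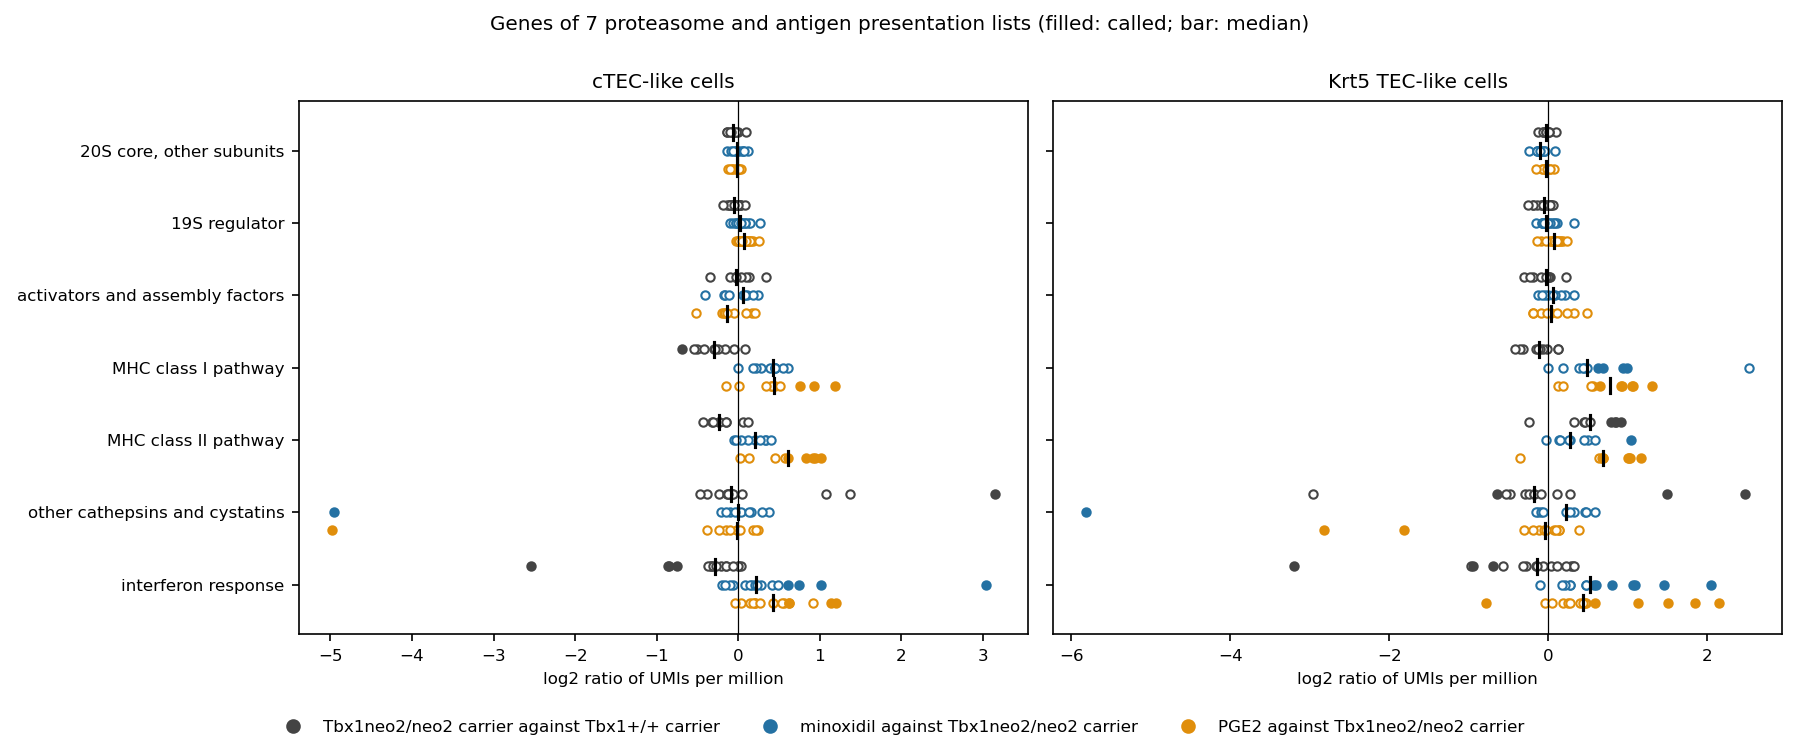
Log2 ratio of CPM for the genes of each pathway list in cTEC-like and Krt5 TEC-like cells, with 1 point per gene (filled when called) and the list's median as a bar, for the 3 comparisons. The 20S, 19S and assembly lists lay close to 0, and with PGE2 the MHC class II list had the highest median in cTEC-like cells, 0.61.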

How the data were processed

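Gene-by-cell count matrices from 4 libraries of E13 to 13.5 thymic lobes were analysed, 1 for each group named in the titles and characteristics of the labels. The deposited counts are whole numbers of UMIs per gene and cell. The authors made them with Cell Ranger 5.0.1 (submitters' processing notes) by aligning reads to mm10 and keeping barcodes called as cells, without normalization. Whether intronic reads or the opposite strand were counted is not given in the sources used here. Total counts per library ranged from 151740600 to 292687940 UMIs.

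Cells passed with 200 or more genes and up to 10% of UMIs from mitochondrial genes. The study states the gene limit, and the mitochondrial limit was set here. Variable genes were drawn without the 10 genes and the genes of the pathway lists, while marker genes as such were not left out. Libraries were integrated by anchors in Seurat 5.3.0 (SeuratObject 5.2.0, Matrix 1.6.5, R 4.3.3) on 2000 of these genes. Cells were clustered on 30 dimensions at resolution 0.3 into 22 clusters. Of these, 18 were named from marker lists scored on summed UMIs with 20 CPM added, at a score of at least 1 with 3 markers each in 10% of the cells. Scrublet (scanpy 1.11.5) marked 4.94%, 0%, 2.19% and 1.81% of cells, so it did not work on the Tbx1neo2/neo2 carrier library, and doublets were left in and removed only as an alternative. Other alternatives changed the mitochondrial limit, the clustering, the way cells were classed, the scaling, the depth and the fold.

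UMIs were summed per class and library in Python 3.11.15 with scipy 1.17.1, numpy 2.4.6 and pandas 2.3.3, and drawn with matplotlib 3.10.9. Levels have exact Poisson and ratios exact conditional binomial 95% intervals, shares have Clopper-Pearson intervals, and a count of 0 was set to 3 counts in a ratio. TMM factors came from edgeR 4.0.16. With 1 library per group no p-value was computed. Only the calls and the ratio intervals were tested on simulated data, drawn with Poisson error alone. Clustering, class naming, doublets and foreign RNA were not simulated. The levels of the 10 genes were given in every main class. From each pathway list the called genes with the highest and lowest log2 ratio in cTEC-like cells at 50 CPM or more were named, as were the 5 genes most like each of Psmb11, Prss16, Psmb8 and Psmb5, and a gene outside this rule is marked as chosen after its values were seen. The genes, lists and rules were chosen with earlier results of these data known. A gene of the interferon response list that the naming rule selects is not reported here by name.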

Additional observations from a re-analysis of the deposited data

Results flagged for a closer look

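Psmb8, the beta5i subunit, moved in opposite directions in 2 classes of the minoxidil library against the Tbx1neo2/neo2 carrier library. Its log2 ratio was -0.65 in mesenchyme-like cells and 1.04 in non-cycling cTEC-like cells, both called as classed here, on 53 and 243 UMIs in the first class and 62 and 21 in the second. The difference between the classes was not tested, since each group had 1 library, and both levels were under 4 CPM. The mesenchyme-like call was kept in 5 of 11 alternatives and its ratio turned positive in 5, reaching 0.999, so the opposite directions depend on how cells were classed and filtered. Psmb11 was found at 171 CPM in the 31 cells of unnamed cluster 6 in the PGE2 library, above the 73.1 CPM in the 1934 cells of that cluster in the Tbx1+/+ carrier library. This cluster took no part in the comparisons. It was led by Chga, Pth and Spp1 over the cells of all libraries together, most of them Tbx1+/+ carrier cells. Its cells of the PGE2 library had a median of 80743 UMIs against 5929.5 in the Tbx1+/+ carrier library. These PGE2 cells also held Psmb8 at 304 CPM and Ctsl at 1151 CPM, and 90.3% of them had a Psmb8 UMI after thinning. In the Tbx1+/+ carrier library the cluster also held Psmb8 at 239.5 CPM and Ctsl at 651 CPM, and 63.4% of its thinned cells had a Psmb8 UMI.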

How the results depend on the processing

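With 1 library per group no library could be left out, and no paired analysis was possible because each group had 1 library. Over 4 classes and 3 comparisons, 20 values were called. All 20 remained called with TMM factors, 15 with a mean over cells, 14 at cluster resolution 0.6, 14 without integration (2 others called the opposite way), 13 with a mitochondrial limit of 5%, 13 with all variable genes kept, 12 without the cells called by Scrublet (1 other called the opposite way), 9 after thinning, and 8 with classes from each cell's own marker UMIs. Of the alternatives chosen after seeing the data, leaving out the highest 5% of Scrublet scores kept 9 and leaving out cells with another class's markers kept 8. Values not called otherwise became called as well, 11 with own marker UMIs, 6 without integration, 5 with a mean over cells, 5 without cells of another class's markers, 3 with all variable genes kept, 2 each with the mitochondrial limit of 5%, at resolution 0.6 and without the highest Scrublet scores, 1 after thinning, and 0 with TMM factors or without Scrublet calls. Depth limits most the values at a few CPM, and the causes of the shifts below were not tested. The number called in Tbx1neo2/neo2 carrier against Tbx1+/+ carrier went from 7 to 3 without Scrublet calls. With minoxidil it went from 5 to 8 without integration, to 2 with own marker UMIs, to 1 after thinning, to 2 without the highest Scrublet scores and to 0 at a fold of at least 2. With PGE2 it went from 8 to 4 with the mitochondrial limit of 5%, to 5 at resolution 0.6, to 4 with all variable genes, to 3 after thinning, to 5 without Scrublet calls, and to 3 without the highest scores, without cells of another class's markers or at a fold of at least 2.

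The Psmb11 log2 ratio in cTEC-like cells of Tbx1neo2/neo2 carrier against Tbx1+/+ carrier went from -0.17 to 0.058 with own marker UMIs, -0.12 with TMM factors and -0.10 without the highest Scrublet scores. With minoxidil it went from 0.07 to -0.012 with the mitochondrial limit of 5%, 0.016 without integration, -0.042 with own marker UMIs, 0.0079 after thinning, 0.0029 without the highest Scrublet scores and 0.15 without cells of another class's markers. With PGE2 it went from 0.46 to 0.41 without integration, 0.52 with own marker UMIs and 0.39 without the highest Scrublet scores. The Psmb11 share of beta5 UMIs in cTEC-like cells, in the order Tbx1+/+ carrier, Tbx1neo2/neo2 carrier, minoxidil and PGE2, became 31.0%, 27.4%, 28.7% and 35.1% with the mitochondrial limit of 5%, 34.9%, 34.4%, 35.5% and 43.7% with own marker UMIs, 36.9%, 34.0%, 36.1% and 41.8% with a mean over cells, and 37.0%, 34.0%, 35.2% and 42.8% after thinning. Without integration it became 33.2%, 32.1% and 38.2% in all but the Tbx1neo2/neo2 carrier library, without the highest Scrublet scores 31.4% in the Tbx1neo2/neo2 carrier library, and without cells of another class's markers 34.3% in the Tbx1+/+ carrier and 34.5% in the minoxidil library.

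Called log2 ratios that changed sign were all of genes at a few CPM in thymocyte-like and mesenchyme-like cells. In Tbx1neo2/neo2 carrier against Tbx1+/+ carrier, Tbata in thymocyte-like cells became 1.06 with own marker UMIs, 1.40 after thinning and 0.99 without cells of another class's markers, where it was at or under 3 counts. After thinning 0 cells of the Tbx1neo2/neo2 carrier library held a Tbata UMI against 3 of the Tbx1+/+ carrier library. The 1.40 comes from setting 0 to 3 counts and shows no higher level. Psmb11 in mesenchyme-like cells became 0.18 without Scrublet calls. With minoxidil, Prss16 in thymocyte-like cells became -1.25 without integration, Psmb11 in mesenchyme-like cells 0.073 with own marker UMIs and 0.22 after thinning, and Psmb8 in mesenchyme-like cells 0.30 without integration, 0.50 with own marker UMIs, 0.23 with a mean over cells, 0.55 after thinning and 0.999 without cells of another class's markers. With PGE2, Psmb11 in thymocyte-like cells became -0.017 without integration and -0.016 with own marker UMIs, and Prss16 there -0.10 at resolution 0.6, -0.64 without integration and -0.96 with own marker UMIs. In mesenchyme-like cells with PGE2, Psmb11 became -0.012 at resolution 0.6, -0.63 without Scrublet calls and -0.40 without the highest scores, Psmb8 became -0.31 with own marker UMIs and -0.066 without the highest scores, and Prss16 became -0.041, -0.70 and -0.52 with own marker UMIs, without Scrublet calls and without the highest scores.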

Other observations

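The proteasome activators had class patterns of their own. Psme1, a subunit of the interferon-induced PA28 cap that docks on the core, had a median over the 4 libraries of 13.6 CPM in cTEC-like cells, 59.0 CPM in Krt5 TEC-like cells, 380 CPM in thymocyte-like cells and 104 CPM in mesenchyme-like cells. Its partner Psme2 stood at 127, 216, 225 and 107 CPM in the same order. Beta-2 microglobulin (B2m), the light chain of MHC class I, was at 56.7 CPM in cTEC-like and 125 CPM in Krt5 TEC-like cells, against 267 CPM in thymocyte-like cells. Cd74 was at 292 CPM in cTEC-like and 783 CPM in Krt5 TEC-like cells, and at 5.04 CPM in thymocyte-like and 5.71 CPM in mesenchyme-like cells. These genes were chosen after their values were seen, and the levels are medians given with no test.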
